A study of Arabidopsis thaliana with 12 samples.

Results

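The light response of wild-type Arabidopsis thaliana seedlings was described as the set of genes that the authors' deposited table lists between illuminated and dark Col-0. It holds 4923 genes of the 11417 that are listed in any of the study's 6 tables. Direction was taken from the ratio of the mean FPKM (fragments per kilobase of transcript, scaled to the number of mapped fragments), light over dark, and 1945 genes were listed higher and 2978 lower.

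Col-0 is the standard laboratory accession. The illuminated group had 3 h of light after 4 days in darkness, and its control stayed dark; both were grown on half-strength MS medium with sucrose added to 1%, and each had 3 libraries. Dark 35S:miR396a, a line of the same ecotype in which a strong viral promoter drives the microRNA miR396a, is used below only as a second dark group. It differs from illuminated Col-0 in genotype as well as in light.

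A seedling germinated in darkness lives on seed reserves, elongates its hypocotyl and holds its cotyledons and plastids in an undeveloped state. Light starts de-etiolation: elongation slows, cotyledons open, and the etioplast is rebuilt into a chloroplast, which needs proteins encoded in the nucleus as well as in the plastid. The same switch moves the seedling from drawing on stores to making and placing new carbon and nitrogen compounds.

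The files give each gene only as a mean over a group, so no SD stands beside any value and no difference could be compared with the spread between replicates. "Listed higher" and "listed lower" mean called by the authors at 2-fold. The deposited p-values reflect counting error in pooled reads, with about 118000000 fragments for illuminated and 114000000 for dark Col-0. Of the 27444 annotated nuclear protein-coding genes, 6.99% were listed higher and 10.7% lower, and counts below are set beside these shares. The 27444 were not limited to expressed genes, whereas the gene lists hold chosen genes. Of the 1089 distinct genes in the lists, 169 were listed higher and 156 lower, both larger shares than among all genes. A list above the shares of all genes therefore need not stand out among the lists. How far expression level alone moves the share of a list or family was not tested. Because all genes are bulk values, fewer cells of a type and less RNA per cell cannot be told apart.

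Near the call, the smallest ratio of a listed higher gene with at least 10 FPKM in the larger group was that of IQD21, at 15.7 FPKM in the light and 7.96 in the dark. Outside it, the largest ratio of a gene not listed was that of AT2G21385, at 39.6 in the light and 18.4 in the dark. On the lower side AT4G04925, at 29.4 and 53.0 FPKM in light and dark, was listed. AT1G52750, at 12.7 and 25.8, was not.

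The labels name the hypocotyl as the tissue, while the growth protocol speaks of seedlings. No defining marker of the hypocotyl was available for a check. Epidermal genes were abundant: 7 of 11 had values in both groups, summing to 1099.5 FPKM in the light and 799.5 in the dark. The lipid-transfer protein LP1 was listed higher and the homeodomain-like protein CPC lower, neither of them against the dark 35S:miR396a line. Guard cell markers summed to 22.3 and 27.4 FPKM in light and dark over 7 of 11 members, with 1 listed lower, the malate channel ALMT12, which was not listed against the dark 35S:miR396a line. Root markers, with 4 of 18 having both values, summed to 34.8 in the light and 42.5 in the dark, and 1 was listed lower, RHD6, again within Col-0 alone. That sum leaves out PYK10, which had no Col-0 value and was at 3007 FPKM in the dark 35S:miR396a line. The sums therefore do not rank the tissues. The 4 of 12 shoot apex markers with both values summed to 1.85 and 1.29 FPKM in light and dark, while STM was at 4.78 in the light and CLV1 at 21.3 in dark Col-0, each with no value in the other group. CUC1 and CUC2 were listed higher and LFY lower, and of these LFY was listed against the dark 35S:miR396a line too. The single lower members of these marker lists were all lost after the median log2 ratio was taken off. The only one of 14 phloem and xylem markers with both values, the phloem protein PP2-A1, was listed lower, at 17.8 FPKM in the light and 39.5 in the dark.

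The dark groups differed from each other in some genes. The cold-stress regulator DDF1 was at 0.316 FPKM in illuminated Col-0, against 57.8 in dark Col-0 and 0.22 in the dark 35S:miR396a line. Of the 4923 genes, 3241 were listed in the same direction against dark 35S:miR396a too, 1451 higher and 1790 lower, and 62 were listed the other way. Counts listed the same way against the second dark group are therefore given beside the lists and families. Both comparisons share the same illuminated Col-0 libraries, so a gene that held in both was not measured independently in the light. The median log2 ratio over the 7581 genes with values in both Col-0 groups was -0.36. These are genes listed in some table, most of them called between these groups, and more of those were lower than higher. The median is therefore not independent of the calls and does not describe all annotated genes. A list whose count moved by over 1.5 times once that median was taken off has that count beside it. Because the median is negative, taking it off raises every ratio and could remove only genes listed lower. What part dark Col-0 plays in any list or family was not tested. A gene that met the call in no table of that group may have no value there.

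**Figure D1:**
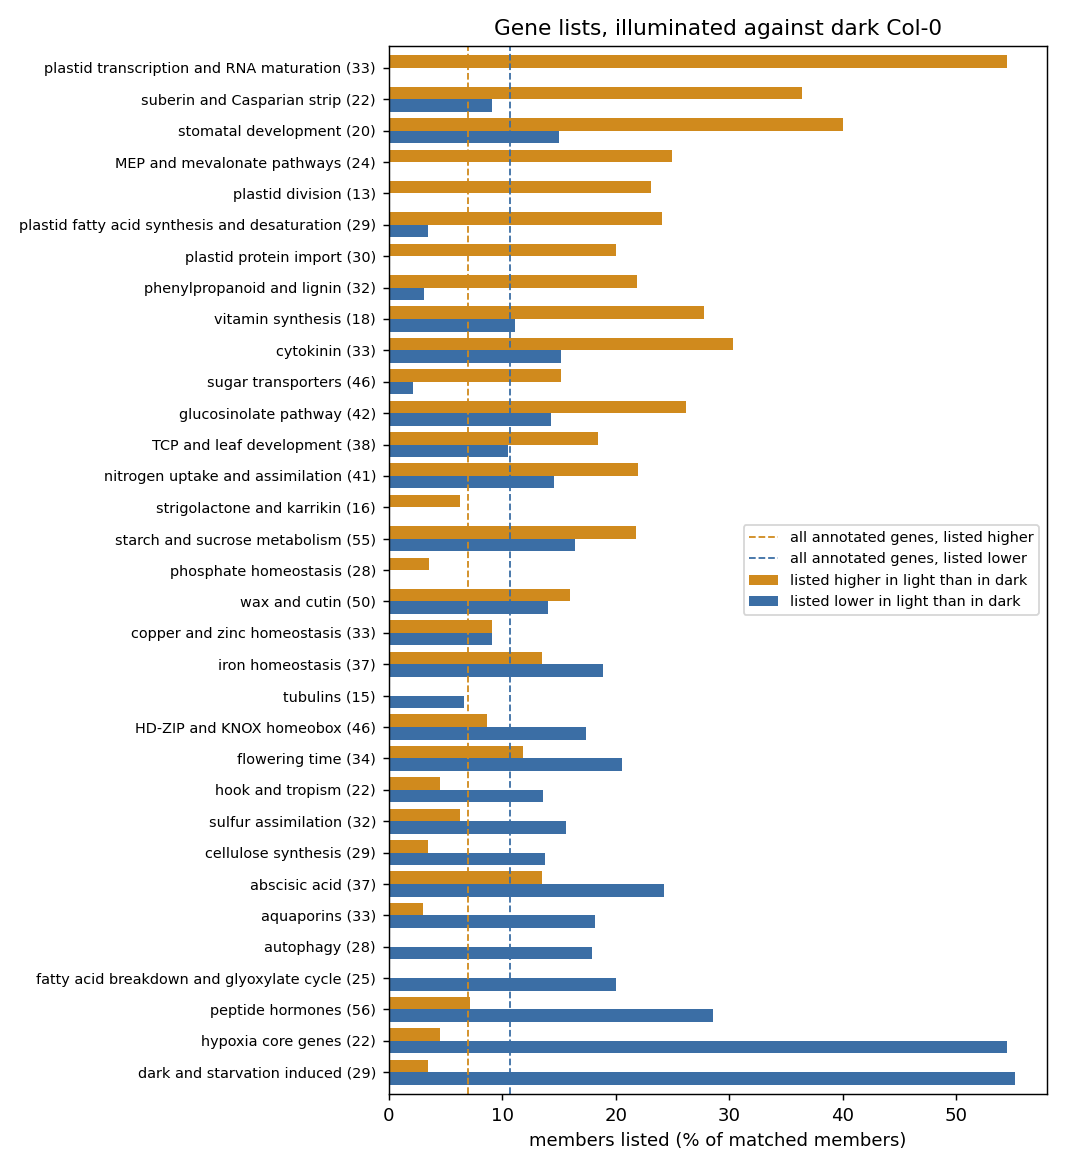
Percentage of matched members of 33 gene lists that were listed higher (orange) or lower (blue) in illuminated than in dark Col-0; the number of members is in brackets and the dashed lines mark all annotated genes (6.99% and 10.7%). Plastid lists stand at the top with no or few lower members, and dark, hypoxia and peptide lists at the bottom.

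The promoters shown first belong to the lists that leaned furthest each way. In the set of genes induced by darkness and starvation, 8 of the 17 listed members carried the I-box core, GATAAG on either strand, in the 250 bases before the annotated start, against 12.3% of all promoters of that length. The 4 of them with the largest dark-to-light ratio are printed 5′ to 3′ from the RefSeq TAIR10.1 genome on the gene's own strand, in lower case with the I-box core in capitals. They encode a branched-chain aminotransferase (BCAT-2), a senescence marker (SEN1), a dormancy-associated protein (DYL1) and an asparagine synthetase (ASN1).
BCAT-2 promoter, chr1:3287837-3288086 (+ strand): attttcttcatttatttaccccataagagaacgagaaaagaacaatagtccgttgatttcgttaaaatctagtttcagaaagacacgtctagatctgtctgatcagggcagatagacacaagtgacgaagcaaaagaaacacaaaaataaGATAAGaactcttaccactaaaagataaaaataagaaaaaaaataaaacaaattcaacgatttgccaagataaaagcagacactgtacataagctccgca
SEN1 promoter, chr4:16944628-16944877 (+ strand): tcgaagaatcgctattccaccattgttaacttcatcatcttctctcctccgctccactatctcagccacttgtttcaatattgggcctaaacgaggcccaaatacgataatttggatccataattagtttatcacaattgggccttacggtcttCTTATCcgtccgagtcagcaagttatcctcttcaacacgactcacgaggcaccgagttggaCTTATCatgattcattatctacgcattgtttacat
DYL1 promoter, chr1:9935441-9935690 (- strand): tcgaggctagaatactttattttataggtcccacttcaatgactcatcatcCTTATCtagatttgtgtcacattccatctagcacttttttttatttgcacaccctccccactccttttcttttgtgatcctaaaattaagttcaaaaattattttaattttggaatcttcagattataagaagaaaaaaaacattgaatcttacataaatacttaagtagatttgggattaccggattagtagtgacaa
ASN1 promoter, chr3:17441432-17441681 (- strand): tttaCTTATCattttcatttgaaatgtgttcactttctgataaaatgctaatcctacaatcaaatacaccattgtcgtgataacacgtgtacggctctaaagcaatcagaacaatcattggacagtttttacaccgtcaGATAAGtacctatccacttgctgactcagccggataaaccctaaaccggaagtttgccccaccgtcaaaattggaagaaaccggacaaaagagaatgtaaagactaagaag

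The first base of a match lay 100 bases before the start of BCAT-2, 96 and 35 before SEN1, 199 before DYL1, and 246 and 111 before ASN1.

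Of the 18 listed genes of plastid transcription and RNA maturation, 7 carried a site II element, TGGGCC or TGGGCT on either strand, against 19.2% of all promoters. The 3 of them with the largest light-to-dark ratio are printed in the same way, with the element in capitals: the RNA-binding protein CRB and the proteins found with plastid chromosomes named PTAC15 and PTAC16.
CRB promoter, chr1:3014987-3015236 (+ strand): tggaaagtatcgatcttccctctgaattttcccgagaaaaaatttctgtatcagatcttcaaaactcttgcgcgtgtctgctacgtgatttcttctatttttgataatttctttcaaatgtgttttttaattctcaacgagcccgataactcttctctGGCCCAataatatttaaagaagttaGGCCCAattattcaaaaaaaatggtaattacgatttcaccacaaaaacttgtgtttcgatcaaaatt
PTAC15 promoter, chr5:21988207-21988456 (+ strand): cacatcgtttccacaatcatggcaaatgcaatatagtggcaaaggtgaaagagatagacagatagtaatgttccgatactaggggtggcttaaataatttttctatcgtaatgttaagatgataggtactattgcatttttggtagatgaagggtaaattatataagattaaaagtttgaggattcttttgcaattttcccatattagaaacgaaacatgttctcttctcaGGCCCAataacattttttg
PTAC16 promoter, chr3:17228392-17228641 (+ strand): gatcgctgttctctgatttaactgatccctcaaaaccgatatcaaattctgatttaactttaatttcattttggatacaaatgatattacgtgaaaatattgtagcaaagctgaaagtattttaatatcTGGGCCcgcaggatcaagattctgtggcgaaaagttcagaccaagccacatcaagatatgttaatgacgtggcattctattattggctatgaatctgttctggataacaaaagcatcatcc

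A match is a string of letters and not a binding site, and these 2 pairs of list and motif were picked after the shares of all 15 motifs searched had been seen.

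Genes that build the chloroplast's own expression machinery were listed higher. Of 33 genes of plastid transcription and RNA maturation, 18 were listed higher (54.5%, against 6.99% of all genes), none lower, and all 18 held against the second dark group. CRB, a chloroplast RNA-binding protein, was at 595 FPKM in the light and 55.0 in the dark, a ratio of 10.8. PTAC16, an abundant protein of the plastid chromosome, was at 379 and 105 FPKM in light and dark, and PTAC15 at 15.2 and 3.17. CSP41A, the partner of CRB in binding chloroplast RNA, was at 172 in the light and 48.5 in the dark. Ratios were smaller for PTAC2, PTAC6, PTAC7 and PTAC13, from 2.03 to 2.16. TRX z, a thioredoxin of the plastid polymerase complex, had a ratio of 3.33. GUN1, a regulator of signals that pass between plastid and nucleus, was at 186 FPKM in the light and 62.4 in the dark.

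Pentatricopeptide repeat proteins, which edit, cut and stabilise organelle transcripts, were listed higher in 32 of 278 cases and lower in 2, against 6.99% and 10.7% of all genes, and 20 of the 32 were higher against the second dark group. MRL1, which protects the Rubisco large-subunit transcript, was at 55.0 FPKM in the light and 16.4 in the dark. Of 324 genes annotated as ribosomal proteins of any compartment, 15 were listed higher and 6 lower, both shares below those of all genes, and 13 and 4 held against the second dark group. Plastid ribosomal proteins were among the higher ones, such as PSRP6 at 455 in the light and 154 in the dark and PRPL11 at 179 and 85.0, whereas RPL18AA, annotated as a cytosolic ribosomal protein, was listed lower, at 45.9 and 99.9. Genes named as aminoacyl-tRNA synthetases or ligases, enzymes that charge tRNAs, were listed higher in 12 of 64 cases and lower in 5. Of these 9 and 2 held against the second dark group. The lower members AT5G12960 and AT3G17800 also carry the domain names DUF1680 and DUF760, so their place here rests on the product name alone. AT5G02720, another lower one, was at only 0.003 FPKM in the light and 0.16 in the dark. EMB1030, an alanyl-tRNA synthetase, was at 41.5 FPKM in the light and 8.10 in the dark.

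Of 30 genes that import proteins into the plastid 6 were listed higher and none lower, and 5 of the 6 held against the second dark group. They were Tic62, a redox-linked component at the inner envelope, at 68.7 FPKM in the light and 13.2 in the dark, the stromal chaperone cpHsc70-2 at 214 and 60.2, CAO (the signal recognition particle protein that delivers antenna proteins) at 200 and 58.0, the channel protein TOC75-III, the chaperone HSP93-III and TIC55-II. Of 13 plastid division genes 3 were listed higher and none lower, in both comparisons. These were FTSZ1-1 and FTSZ2-2, which form the division ring, at 38.3 and 13.3 and at 19.4 and 7.57 FPKM in light and dark, and SULA at 35.3 and 10.9.

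Small redox proteins had the highest share of higher members among the 34 annotated families counted. Among 95 genes annotated as thioredoxins or members of their superfamily, a family added after values had been seen, 28 were listed higher (29.5%) and 7 lower, of which 20 and 4 held against the second dark group. Chloroplast thioredoxins that switch enzymes on in the light were among them: TRXF1 at 196 FPKM in the light and 21.8 in the dark, THM1 at 323 and 91.1, and TRX-M4 at 210 and 42.2. NTRC, a reductase fused to a thioredoxin, was at 105 and 16.1. The enzyme that passes electrons from ferredoxin to thioredoxins was represented by FTRA2, at 112 in the light and 25.3 in the dark. GRX480, a glutaredoxin of salicylate signalling, went against them, at 1.35 FPKM in the light, 46.6 in dark Col-0 and 2.4 in the dark 35S:miR396a line.

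Plastid fatty acid synthesis and desaturation had 7 of 29 members higher and 1 lower, of which 5 and 1 held against the second dark group. ACP4, an acyl carrier protein of leaves, was at 710 FPKM in the light and 66.1 in the dark. The desaturases that finish thylakoid lipids were listed higher too, FADA at 58.0 and 2.39, FAD5 at 181 and 27.9 and FAD8 at 59.8 and 7.64 in light and dark. ADS1, another desaturase, went the other way, at 4.28 in the light, 83.4 in dark Col-0 and 89.3 in the dark 35S:miR396a line. Of 24 genes of the plastid (MEP) and cytosolic (mevalonate) routes to isoprenoids, 6 were listed higher, none lower, and all 6 held against the second dark group. DXR, the committed enzyme of the plastid route, was at 102 and 31.6 FPKM in light and dark, GGPS1 at 108 and 31.7, and the sterol enzyme SQE3 at 54.4 and 10.6.

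Among 18 vitamin genes 5 were listed higher and 2 lower, and all but 1 of the lower ones held against the second dark group. THI1, which makes the thiazole part of thiamine, was at 774 FPKM in the light and 54.7 in the dark, a ratio of 14.1. ABC4, an enzyme of phylloquinone synthesis, was at 45.0 and 10.01, and the tocopherol cyclase VTE1 at 7.81 and 1.56. PDS1, which makes the ring precursor of tocopherol and plastoquinone, was listed lower, at 30.1 in the light, 165 in dark Col-0 and 112 in the dark 35S:miR396a line. PDX1.2, a non-catalytic relative of the vitamin B6 enzyme, was at 12.4, 42.9 and 16.4 FPKM in those groups.

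Of 29 genes known to be induced by darkness or sugar starvation, 16 were listed lower (55.2%, against 10.7% of all genes) and 1 higher, and 14 of the 16 were lower than in the second dark group too. The lower count was 10 after the median log2 ratio was taken off. SEN1 was at 22.1 FPKM in the light, 503 in dark Col-0 and 255 in the dark 35S:miR396a line. DYL1 was at 215, 2033 and 875 in the same order, and BCAT-2 at 5.25, 132 and 118. The breakdown of branched-chain amino acids, an alternative source of energy, was represented by IVD at 37.3 FPKM in the light and 155 in the dark, MCCA at 19.3 and 93.4, and MCCB at 24.3 and 60.6. The member on the other side was GBF6, a bZIP factor whose translation sucrose represses, at 16.6 and 5.66. All seedlings had sucrose in the medium.

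Of 28 autophagy genes 5 were listed lower and none higher, 3 of them also against the second dark group, and 4 of them encoding the ATG8 protein that coats autophagosomes (ATG8B, ATG8C, ATG8F and APG8H). Only 1 autophagy gene was still 2-fold lower after the median log2 ratio was taken off. ATG8F was at 66.4 FPKM in the light and 172 in the dark. Of 25 genes of fatty acid breakdown and the glyoxylate cycle, through which seedlings turn stored oil into sugar, 5 were listed lower and none higher, 4 of them in both comparisons and 3 after the median log2 ratio was taken off. Isocitrate lyase, ICL, was at 30.02 in the light, 174 in dark Col-0 and 130 in the dark 35S:miR396a line. PCK1, which feeds the products into sugar synthesis, was at 118, 619 and 554.

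**Figure D2:**
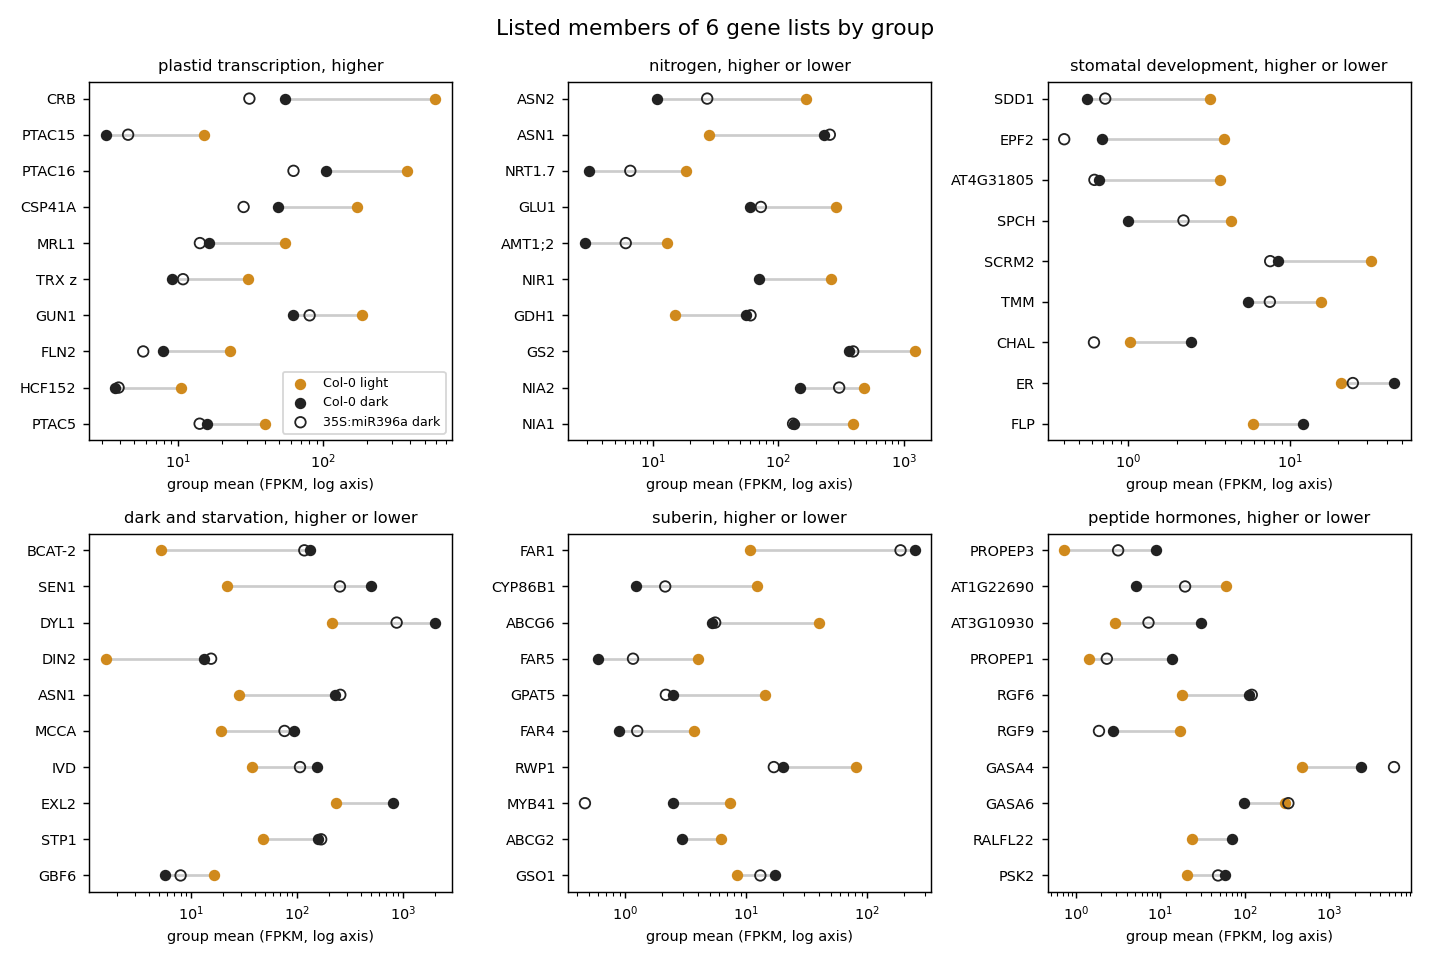
Group means in FPKM (log axis) of the listed members with the largest ratios in 6 lists: illuminated Col-0 (orange), dark Col-0 (black) and, where known, dark 35S:miR396a (open circle). Members of the plastid transcription list lie to the right in the light, and nearly all those of the starvation list lie to the left.

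Genes of nitrogen uptake and assimilation were listed in both directions. Of 41 members 9 were listed higher (22%) and 6 lower (14.6%), of which 6 and 4 held against the second dark group. The lower count was 3 after the median log2 ratio was taken off. Nitrate is reduced by nitrate reductase and nitrite reductase, and NIA1 was at 391 FPKM in the light and 132 in the dark, NIA2 at 481 and 150, and NIR1 at 263 and 70.2. The resulting ammonium is fixed in the plastid by GS2, at 1218 and 364, and by the glutamate synthase GLU1, at 288 and 59.9. The asparagine synthetases parted: ASN2 was listed higher, at 167 in the light and 10.9 in the dark, and ASN1 lower, at 28.3 and 231. GDH1, which releases ammonium from glutamate, was listed lower at 15.2 and 55.7, as were the nitrate transporters NRT1.1, NRT1.8 and NRT2.6 and the cytosolic glutamine synthetase GLN1.3. NIA2 was not listed against dark 35S:miR396a, in which it had 305 FPKM. Of 114 transporters of amino acids and peptides 7 were listed higher (6.14%) and 17 lower (14.9%). Of these 3 and 12 held against the second dark group. CAT2, at 89.7 in the light and 222 in the dark, was the most abundant of the lower ones.

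Of 55 genes of starch and sucrose metabolism 12 were listed higher (21.8%) and 9 lower (16.4%). Of these 11 and 5 held against the second dark group. Those listed higher included the starch synthases SS1, at 60.8 FPKM in the light and 18.3 in the dark, and SS4, at 23.7 and 7.61, the branching enzyme SBE2.2 and the ADP-glucose pyrophosphorylase subunit APL1, at 82.3 and 33.1. Enzymes that degrade starch were on that side too, among them AMY3 at 36.9 and 11.05 and CT-BMY at 27 and 8.79. On the lower side stood the sucrose synthase SUS4, at 1.04 and 4.52, the fructan exohydrolase relative cwINV6 at 0.91 and 5.12, and the subunits APL3 and APL4. SPS2F, a sucrose phosphate synthase, was listed lower than dark Col-0, at 11.6 and 22.5, but higher than dark 35S:miR396a, at 4.49. Sugar transporters were listed higher in 7 of 46 cases and lower in 1, of which 4 and 1 held against the second dark group. Only 4 of the 7 higher ones had at least 1 FPKM in the larger group. APE2, which exports triose phosphate from the chloroplast, was at 338 in the light and 138 in the dark, and the vacuolar carriers SWEET17 and SWEET2 were at 68.2 and 22.6 and at 32.2 and 9.42. STP1, a hexose importer, was the lower one, at 47.6 and 158.

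Of 37 iron genes 5 were listed higher (13.5%) and 7 lower (18.9%), of which 3 and 6 held against the second dark group. The lower count was 4 after the median log2 ratio was taken off. FER3, a plastid ferritin that stores iron, was at 104 FPKM in the light and 45.1 in the dark. IRT1, the iron importer of roots, was listed lower at 3.97 and 8.65, as were the mitochondrial iron reductase FRO3, at 11.3 and 27.9, and VIT1, the vacuolar iron transporter, at 0.02 in the light, 3.39 in dark Col-0 and 1.203 in the dark 35S:miR396a line. Sulfur genes were listed lower in 5 of 32 cases, all of them sulfate transporters (4 in both comparisons) such as SULTR3;1 at 1.56 and 10.5, and higher in 2, LSU2 and SERAT3;2. Copper and zinc genes were listed higher in 3 of 33 cases (ZIP5, ZIP11 and FRO5) and lower in 3. Both shares were 9.09%, near those of all genes. The lower ones were the metallothioneins MT2A, at 249.7 and 664.5, and MT3, at 127 and 387, and the copper transporter COPT3. Of the listed members only COPT3 was listed against the second dark group. Of 28 phosphate genes 1 was listed, SQD2, which makes the phosphorus-free thylakoid lipid sulfolipid, at 27.98 in the light and 11.9 in the dark.

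Of 32 phenylpropanoid and lignin genes 7 were listed higher and 1 lower, of which 6 and 1 held against the second dark group. FAH1, the hydroxylase that opens the route to sinapate esters and syringyl lignin, was at 76.5 FPKM in the light, 1.75 in dark Col-0 and 2.54 in the dark 35S:miR396a line, a ratio of 43.7 within Col-0. 4CL3, the ligase that feeds flavonoid synthesis, was at 17.2 and 1.03, the alcohol dehydrogenase ATCAD4 at 97.9 and 32.4, and SNG1, which makes sinapoylmalate, at 253 and 121 in light and dark. Of 22 suberin and Casparian strip genes, which seal cell walls, 8 were listed higher and 2 lower, of which 7 and 1 held against the second dark group, and 1 was still lower after the median log2 ratio was taken off. The acyltransferases RWP1 and GPAT5 were at 80.6 and 20.3 and at 14.3 and 2.49, the transporter ABCG6 at 40 and 5.25, and the hydroxylase CYP86B1 at 12.4 and 1.22. FAR1, a fatty acyl reductase of the same pathway, went the other way, at 10.8 in the light, 247 in dark Col-0 and 189 in the dark 35S:miR396a line.

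Wax and cutin genes stood on both sides, with 8 of 50 listed higher (16%) and 7 lower (14%). Of these 7 and 6 held against the second dark group. LTL1, a lipase of the GDSL family, was at 142 FPKM in the light and 29.6 in the dark, LACS2, which activates cutin monomers, at 29.5 and 10.02, and CER3, an enzyme of alkane formation, at 128 and 58.4. Its partner CER1 was listed lower, at 18.8 and 77.1, together with CYP86A4 at 2.02 and 17.8 and KCS12 at 3.76 and 19.3. The regulator MYB96 was at 10.3 in the light, 48.8 in dark Col-0 and 11.1 in the dark 35S:miR396a line. GDSL lipases as a family were listed higher in 17 of 101 cases (16.8%) and lower in 11 (10.9%, close to the share of all genes). Of these 16 and 6 held against the second dark group. Lipid transfer proteins were listed for 15 of 133 each way, of which 13 higher and 10 lower held. Each share was 11.3%, on the lower side close to that of all genes. LTP2 was among the 5 most abundant transcripts of dark Col-0 that were listed, at 751 FPKM in the light and 4877 in the dark.

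Genes named as peroxidases, counted here as the class III peroxidases that cross-link the wall, were listed lower in 17 of 71 (23.9%) cases. They were listed higher in 5, and 13 lower and 3 higher ones held against the second dark group. DOX1, the most abundant higher one at 140 FPKM in the light and 59.5 in the dark, was counted by its product name alone. AT4G11290 was at 23.1 FPKM in the light and 73.2 in the dark. Of 129 pectin methylesterases and their inhibitors 18 were listed lower (14%) and 7 higher (5.43%), 11 and 7 of them in both comparisons. Among the lower ones AT4G25260 was at 7.23 and 94.0. The pectin lyases and polygalacturonases, which cut the same polymer, were listed higher in 12 of 115 cases (10.4%) and lower in 7 (6.09%). Of these 7 and 4 held against the second dark group, and AT1G60590 was at 17.9 in the light and 0.336 in the dark. Arabinogalactan proteins and extensins were listed lower in 18 of 113 cases (15.9%) and higher in 10 (8.85%). Of these 12 and 8 held against the second dark group. AGP4 was at 82.2 and 800, and AGP22 at 16.3 and 235. The higher member AT3G16670 was at 12.2 in the light and 5.61 in dark Col-0 but at 127 in the dark 35S:miR396a line, where the direction was reversed.

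The list of cellulose synthesis, which also holds relatives that make other wall polymers, had 4 of 29 members lower (CSLA02, CSLC04, CSLD2 and CSLD3) and 1 higher, CESA5, at 56.8 FPKM in the light and 28.04 in the dark. Of the lower ones only CSLC04 held against the second dark group, and 1 was still lower after the median log2 ratio was taken off. Of 33 aquaporins, which carry water across membranes, 6 were listed lower and 1 higher, and 4 of the 6 held against the second dark group. PIP2;4 was at 51.9 in the light, 461 in dark Col-0 and 313 in the dark 35S:miR396a line, and PIP1;5 at 219, 757 and 577. The higher one, TIP3;1 of seed vacuoles, was at only 0.38 and 0.14 in light and dark Col-0 and was listed lower against dark 35S:miR396a. Of 15 tubulins 1 was listed, TUB1, at 14.5 in the light, 132 in dark Col-0 and 91.7 in the dark 35S:miR396a line. Of 22 hook and tropism genes 3 were listed lower and 1 higher, in both comparisons, and 1 was still lower after the median log2 ratio was taken off. HLS1, which the apical hook needs, was at 2.37 and 7.73, WAG1 at 2.80 and 6.37 and WAV2 at 28.9 and 66.1, and the phytochrome kinase substrate AT1G18810 was at 5.11 and 0.81.

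Of 20 genes of stomatal development 8 were listed higher (40%) and 3 lower, and 7 of the 8, all but SPCH, were also higher than in the second dark group. None of the 3 lower ones was listed against that group, and none was 2-fold lower after the median log2 ratio was taken off. SPCH, which starts the lineage, was at 4.37 FPKM in the light, 1.00 in dark Col-0 and 2.21 in the dark 35S:miR396a line. MUTE, which ends the divisions, was at 1.86 and 0.486, and their partner SCRM2 at 31.9 and 8.45 in light and dark. The spacing signal EPF2 was at 3.94 and 0.686, its receptor TMM at 15.8 and 5.55, the protease SDD1 at 3.23 and 0.56 and the polarity protein BASL at 1.43 and 0.21. ER, a receptor of the same pathway, was listed lower at 20.7 and 44.4, as were CHAL, the ligand that acts in the hypocotyl, at 1.03 and 2.45, and FLP. CHAL was at 0.616 in the dark 35S:miR396a line, below its value in the light. Of the 7 guard cell markers with both values 4 had lower and 3 higher values in the light, such as MYB60 at 6.39 and 9.62 and KAT2 at 2.18 and 1.35 in light and dark, neither of them listed.

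Regulators of leaves, meristems and flowering were listed in both directions. Of 38 TCP and leaf genes 7 were listed higher (18.4%) and 4 lower (10.5%), of which 5 and 3 held against the second dark group. TCP10 was at 14.7 FPKM in the light and 4.19 in the dark, and TCP4, which restrains leaf growth, at 27.2, 12.7 and 24.97 in light, dark Col-0 and dark 35S:miR396a. The growth promoters ARGOS and ARL were lower, at 8.95 and 26.4 and at 7.49 and 38.3 in light and dark. HD-ZIP and KNOX genes were listed lower in 8 of 46 cases (17.4%) and higher in 4 (8.7%). Of these 5 and 2 held against the second dark group. HB-12 was at 6.66 in the light and 30.6 in the dark, HB52 at 12.8 and 35.7, and HDG11, of the epidermis, at 2.52 and 0.943. Of 34 flowering genes 7 were listed lower (20.6%) and 4 higher (11.8%), of which 5 and 3 held against the second dark group. The lower count was 4 after the median log2 ratio was taken off. AT1G69570, a cycling Dof factor, was at 3.08 and 20.2, CDF2 at 4.42 and 12.03, and SPL9, which promotes the adult phase, at 2.64 and 0.46. The florigen FT was among the lower ones, at 0.04 and 0.186.

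Among hormones, cytokinin genes leaned higher within Col-0, with 10 of 33 listed higher (30.3%) and 5 lower (15.2%). The response regulators RR16, ARR7 and ARR4, which damp the signal they respond to, were at 6.88 and 0.823, 17.7 and 4.39, and 92.6 and 39.8 FPKM in light and dark Col-0. In dark 35S:miR396a these same genes were at 6.71, 17.8 and 94.7, as high as in illuminated Col-0, and only 4 of the 10 were higher against that group, as were 4 of the 5 lower ones lower. IPT7, an enzyme of cytokinin synthesis, was listed lower at 0.563 in the light, 7.29 in dark Col-0 and 1.87 in the dark 35S:miR396a line. The degrading enzyme CKX7 was listed higher, at 12.6 and 2.37 in light and dark.

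Of 37 abscisic acid genes 9 were listed lower (24.3%) and 5 higher (13.5%), both above the shares of all genes (10.7% and 6.99%). Of these 4 and 2 held against the second dark group. The median log2 ratio of the list was -0.65 within Col-0 and 0.0031 against that group. Genes of synthesis and of breakdown were both listed lower: NCED3, the rate-limiting enzyme, was at 5.68 FPKM in the light and 27.9 in the dark, and CYP707A3, which inactivates the hormone, at 4.62 and 56.5. Both were low in dark 35S:miR396a, at 10.6 and 4.57, and neither was listed against it. CYP707A2, another inactivating enzyme, was listed higher at 2.94 and 0.32. The phosphatases PP2CA, ABI1 and HAI1, which switch the signal off, were at 42.7 and 102, 45.8 and 111, and 13.7 and 38.2. The receptor PYL6 was at 6.71 and 0.783, and PYL4 at 99.9 and 47.5. Of 16 strigolactone and karrikin genes 1 was listed, the karrikin receptor KAI2, higher at 57.8 in the light, 24.4 in dark Col-0 and 15.6 in the dark 35S:miR396a line.

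Secreted peptides were listed lower in 16 of 56 (28.6%) cases and higher in 4, of which 13 and 3 held against the second dark group. GASA4, a gibberellin-responsive peptide, was at 468 FPKM in the light, 2390 in dark Col-0 and 5807 in the dark 35S:miR396a line. Root meristem growth factor RGF6 was at 17.9 in the light and 112 in the dark, and RGF9 of the same family went the other way, at 17.2 and 2.75. The elicitor peptide precursors PROPEP1 and PROPEP3 were at 1.44 and 13.8 and at 0.726 and 8.92. AT1G22690, a gibberellin-regulated peptide, was listed higher at 59.8 in the light, 5.07 in dark Col-0 and 19.6 in the dark 35S:miR396a line. GASA6 was listed higher at 299 and 97.0 but stood at 326 in the second dark group.

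Genes known from low oxygen were listed lower, although the labels name no change of oxygen. Of 22 core genes 12 were listed lower (54.5%) and 1 higher, and 8 of the 12 were lower against the second dark group. Haemoglobin HB1 was at 6.09 FPKM in the light, 19.7 in dark Col-0 and 23.8 in the dark 35S:miR396a line, and the alcohol dehydrogenase ADH1 was at 8.96, 26.9 and 23.9. The ethylene receptor ETR2 was at 2.85, 13.2 and 22.8. SRO5 had the largest ratio, at 2.97 in the light and 93.4 in dark Col-0, and was at 2.58 in dark 35S:miR396a.

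Glucosinolate genes, which make the mustard oil defences of the cabbage family, numbered 42, of which 11 were listed higher (26.2%) and 6 lower (14.3%). Of these 7 and 2 held against the second dark group, and only 1 was still lower after the median log2 ratio was taken off. MYB28, which activates the branch from methionine, was at 10.3 FPKM in the light and 1.54 in the dark, and AT2G31790, a glycosyltransferase, at 20.7 and 5.57. MYB51, which activates the branch from tryptophan, was listed lower at 7.81 in the light, 34.7 in dark Col-0 and 11.8 in the dark 35S:miR396a line, and CYP79B3 of that branch at 18.1 and 39.9. The myrosinase TGG1, which sets the mustard oils free, was at 167 and 418. Of the 11 higher members 6 had under 1 FPKM in both groups, among them MYB29, listed at 0 in the dark.

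RING and U-box proteins, which tag others for breakdown, were listed lower in 47 of 427 cases (11%, close to the 10.7% of all genes) and higher in 8 (1.87%), of which 23 and 4 held against the second dark group. PUB23, which dampens immune signalling, was at 6.33 FPKM in the light, 65.3 in dark Col-0 and 6.90 in the dark 35S:miR396a line. Wall-associated and lectin receptor kinases, which sit at the cell surface, were listed lower in 23 of 98 (23.5%) cases and higher in 5, of which 10 and 3 held. F-box proteins, which choose targets for the same breakdown, were listed lower in 22 of 652 cases and higher in 7, of which 12 and 5 held, and both shares are below those of all genes. AT1G73120 of that family was at 21.8 in the light, 576 in dark Col-0 and 258 in the dark 35S:miR396a line.

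Among transcription factors, MYB factors were listed lower in 26 of 153 cases (17%) and higher in 17 (11.1%). Of these 10 lower and 13 higher ones held against the second dark group. Lower calls held less often over all listed genes too, 1790 of 2978 against 1451 of 1945 higher. MYB10 was at 1.16 FPKM in the light, 57.0 in dark Col-0 and 33.1 in the dark 35S:miR396a line, whereas MYB77 was at 8.10, 47.3 and 7.02. NAC factors were listed lower in 11 of 103 cases, the 10.7% of all genes, and higher in 4. The bZIP factors, counted by product name, were listed lower in 13 of 74 cases (17.6%) and higher in 5. Of the higher ones AT3G60320 and AT1G02110 also carry the domain names DUF630 and DUF632. Neither was listed against the second dark group. Only 4 of the lower NAC and 4 of the lower bZIP genes held against the second dark group. NAC062, a membrane-bound factor, was at 19.3, 82.4 and 19.9 in light, dark Col-0 and dark 35S:miR396a. Of 132 bHLH factors 19 were listed lower (14.4%) and 11 higher (8.33%), of which 11 and 7 held. HEC2, a regulator of tissue growth, was at 0.66, 27.5 and 4.91.

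Cytochromes P450, a large family of oxidising enzymes, were listed higher in 30 of 226 cases and lower in 38, both above the shares of all genes, and 22 and 27 held against the second dark group. CYP97A3, a carotenoid hydroxylase, was at 68.0 FPKM in the light and 6.02 in the dark. UDP-glycosyltransferases were listed higher in 23 of 131 cases (17.6%) and lower in 17 (13%), of which 21 and 11 held. Mitochondrial carriers were listed higher in 5 of 37 cases and lower in none, but only 2 of the 5 held against the second dark group, AT3G51870 and BOU. BOU, which photorespiration needs, was at 211 and 44.8. Of 48 histones 2 were listed higher (4.17%) and 1 lower (2.08%), both below the shares of all genes, and 1 each way in both comparisons. The lower one was the linker histone HIS1-3 at 13.4 in the light and 44.4 in the dark.

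Most ratios were moderate. Of genes above 0 in both groups, 627 were at least 4-fold higher and 955 at least 4-fold lower, and 31 and 32 were at least 64-fold apart. The largest ratios in favour of the light, among genes with at least 10 FPKM in the larger group, included AT3G28220 at 19.1 FPKM in the light and 0.023 in the dark, and NDA1, an alternative NADH dehydrogenase, at 14.2 and 0.023. The dark values rest on about 4 and 6 fragments, so the size of these ratios is uncertain. SCPL10, an acyltransferase-like protein of the carboxypeptidase family, was at 20.9 and 0.083, and AT2G32550 at 24.6 and 0.176.

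Among the genes lowest in the light relative to the dark were BBX23, a B-box factor of light signalling, at 0.023 FPKM in the light and 28.5 in the dark, and CYP96A5 at 0.016 and 10.5. Both had about 3 fragments in the light. AT2G15880, of the extensin type, was at 0.096 and 23.5. Others were low in dark 35S:miR396a as well: RRTF1, a redox-responsive factor, was at 0.753 in the light, 84.6 in dark Col-0 and 0.703 in the dark 35S:miR396a line, and FAMT, a methyltransferase, at 0.09, 10.3 and 0.096.

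Zero values occurred on both sides, with 44 genes at 0 in dark Col-0 and 52 at 0 in illuminated Col-0. AT4G36660 was at 5.40 FPKM in the light and listed at 0 in the dark, and AT2G29300 was at 3.08 in the light and listed at 0 in the dark. AT2G22880 was listed at 0 in the light and at 29.6 FPKM in the dark. HB20, a homeobox factor, was listed at 0 in the light and stood at 9.09 in dark Col-0 and 4.06 in the dark 35S:miR396a line. CML30, a calmodulin-like protein, was listed at 0 in the light, with 6.84 and 5.996 in those dark groups.

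The listed genes differed in structure. Those listed lower had a median transcript length of 1457.5 bases and 26.9% of them had a single exon, against 1604 bases and 18.8% for those listed higher and 1516 bases and 19.9% for genes not listed. Of 1-exon genes 14% were listed lower, and the share was 12.3% with 2 to 4 exons, 8.78% with 5 to 9 and 5.37% with 10 or more. The share listed higher stayed between 6.40% and 7.49% over the same classes. Listing in itself depends on transcript length and level, because the call rests on fragment counts. Among listed genes the higher share was 36.6% below 1 FPKM in the larger group, 38% from 1 to 10, 40.1% from 10 to 100 and 45.5% above 100. No chromosome stood out, with 6.59% to 7.37% listed higher and 9.89% to 11.3% lower.

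**Figure D3:**
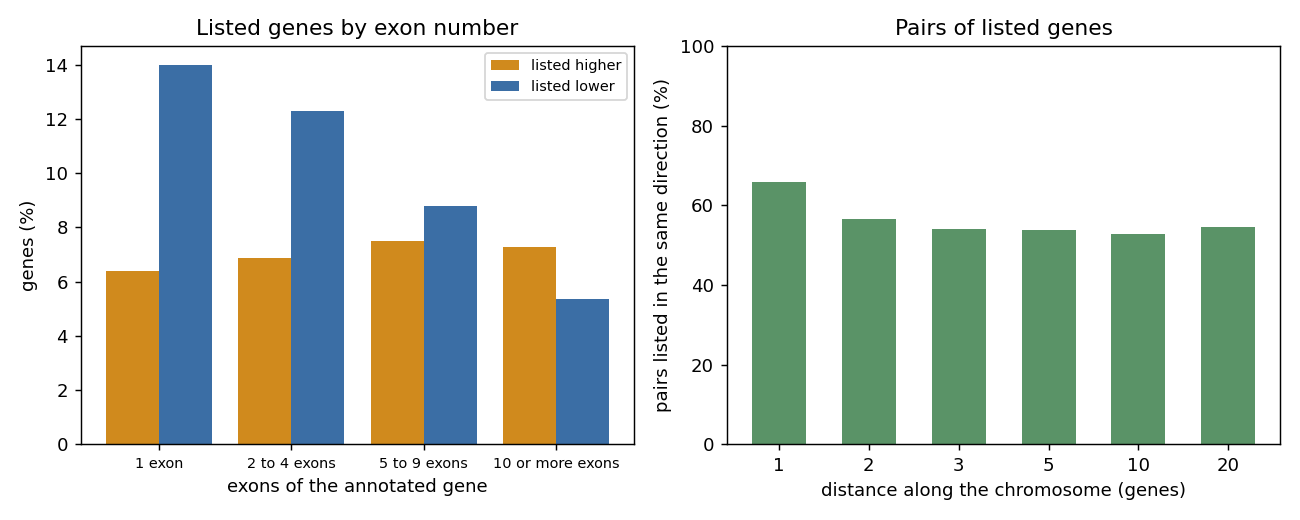
Share of genes listed higher (orange) or lower (blue) by number of exons, and share of neighbouring listed genes that changed in the same direction by distance in genes. The lower share runs from 14% for 1 exon to 5.37% for 10 or more, and the same-direction share from 65.8% for adjacent genes to 52.8% at 10 genes.

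Neighbouring genes often shared a direction. Among 1055 adjacent pairs of listed genes 65.8% were listed the same way, and the share was 56.6% for genes 2 apart, 54% for 3 apart and 52.8% for 10 apart. Pairs transcribed away from each other shared a direction in 70.4% of cases and pairs transcribed towards each other in 58.5%. Pairs with the same annotated product did so in 80.6% and pairs with different products in 64.1%, and reads of near-identical or overlapping neighbours may have been split between them. No test was made of these shares.

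There were 16 runs of 4 or more listed neighbours with 1 direction, 3 of them higher and 13 lower. Lower genes were also the more numerous, 10.7% of all annotated genes against 6.99% higher. How many runs each way these shares alone would give was not tested. The longest held 9 genes on chromosome 5, from AT5G22520 to AT5G22580, and most of them were under 1 FPKM; AT5G22580 was at 5.36 FPKM in the light, 63.96 in dark Col-0 and 74.3 in the dark 35S:miR396a line. A run of 5 thioredoxin-superfamily genes on chromosome 4, from AT4G15660 to AT4G15700, was listed higher. AT4G15690 of that run was at 17.0, 4.93 and 15.9 in the same order of groups. Another run held the cold regulators CBF2, DREB1A and CBF1, with CBF2 at 2.64, 120 and 8.06.

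Promoters of the listed genes were compared by their short motifs, searched on both strands of the 250 bases before each start. The CAMTA site is bound by calmodulin-binding factors, and was searched as ACGCGG, with the further spelling ACGCGT and with the third spelling CCGCGT. It was in 7.33% of promoters of lower genes, 2.71% of higher genes and 3.38% of all. Among genes that kept their direction in both comparisons its share was 4.79% in lower and 2.97% in higher genes. The G-box CACGTG, bound by many bHLH and bZIP factors, was in 8.08% of promoters of higher genes and 9.52% of lower genes, against 6.49% of all. Among genes that kept their direction in both comparisons this order was turned, with 8.64% of higher and 7.81% of lower genes. The W-box of WRKY factors, TTGACC or TTGACT, was in 25.8% and 31.5% of promoters of higher and lower genes, against 28.4% of all. The telo box AAACCCTA, common in genes of translation, was in 3.60% and 2.01%, against 4.49% of all. The I-box core was in 15.2% of promoters of higher genes and 12.8% of lower genes, against 12.3% of all. The site II element was in 19% and 13.2%, against 19.2% of all, so the higher genes were close to all genes and the lower genes below them. The TATA box, TATAAA, was in 46.6% and 47.8%, against 47.3% of all. These shares are descriptions with no test.

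**Figure D4:**
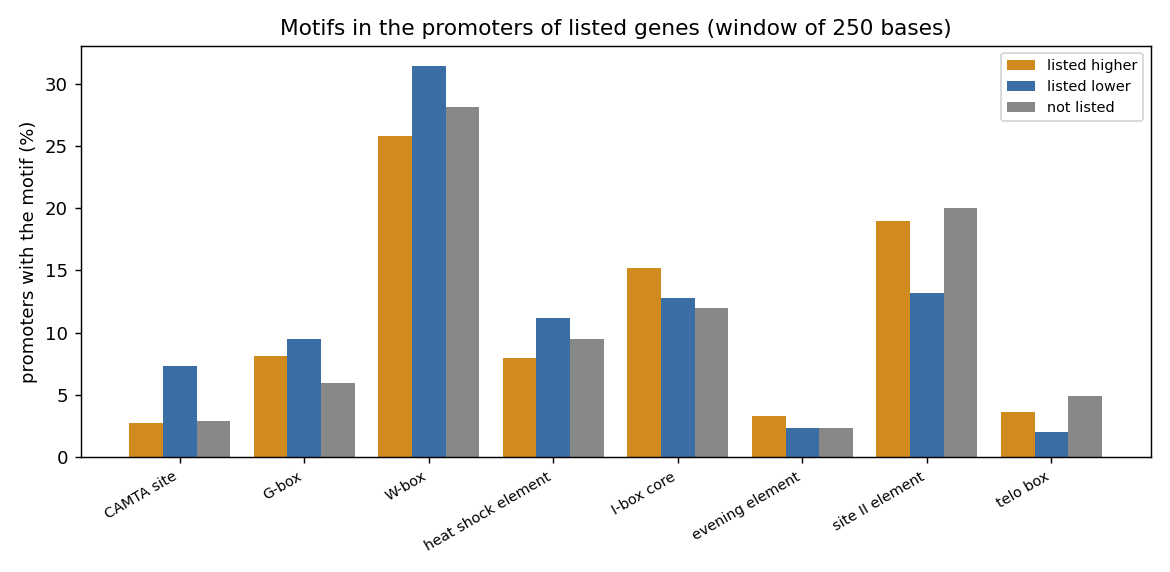
Percentage of promoters (250 bases before the annotated start, both strands) that hold each motif among genes listed higher, listed lower and not listed. The CAMTA site stands at 7.33% in lower genes and 2.71% in higher genes, and the site II element at 13.2% and 19%.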

How the data were processed

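Messenger RNA libraries of 12 samples in 4 groups of 3 were sequenced by the submitters on the BGISEQ-500. HISAT, Bowtie2 and TAIR10 are named in the submitters' processing notes. The authors deposited 6 tables of pairwise comparisons, each with the mean FPKM per group, a log2 ratio, a p-value and a q-value per gene. Per the file headers the p-value and q-value come from DEGseq, whereas the design text names NOISeq; the listed genes had at least a 2-fold deposited change and a q-value of at most 0.000907. Values of single libraries were not used here, so no spread between replicates could be given, and the planned limma fit was not used. No column belonged to a sample outside the study.

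FPKM ratios were computed from the deposited FPKM with python 3.11.15 and pandas 2.3.3, with no pseudocount. Genes were matched to the TAIR10.1 annotation (RefSeq): 4851 of 4923 matched nuclear protein-coding genes, 50 were the authors' new transcripts and 22 were in organelles. Pooled depth was estimated from the deposited p-values, log2 ratios and FPKM under a counting-error model assumed for DEGseq, and the step was tested on simulated data. Of 686 low genes, 79.3% gave whole fragment numbers within 0.05.

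Members, 38 gene lists (1125 of 1140 names matched) and 34 families were chosen with earlier results of these data known, and 7 families (thioredoxins among them) were added after values were seen. PTAC5 was moved between plastid lists at that stage. Named genes were the 10 largest and smallest ratios at 10 FPKM or more, the 5 highest per group and at 0, and up to 4 per list and direction at 2 FPKM or more. Others were named for their role after their values were seen. Alternatives were the 4-fold call, minimum levels, a pseudocount of 1, centring and the second dark group.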

Additional observations from a re-analysis of the deposited data

How the results depend on the processing

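No paired analysis was possible because the tables hold group means only, and leaving out single replicates was not run for the same reason. The 1945 genes listed higher became 671 at 4-fold, 1254 with at least 5 FPKM in the larger group and 1289 at 2-fold on log2(FPKM + 1). The 2978 listed lower became 1007, 1862 and 1873 under these settings, 1886 after the median log2 ratio of -0.36 (7581 genes with values in both groups, which are genes listed in some table) was taken off, and 1790 against dark 35S:miR396a. Counts with at least 1 FPKM were 1645 higher and 2458 lower. Set against dark 35S:miR396a, the median log2 ratio of list members changed sign for cytokinin (-0.21, against 0.59 within Col-0), abscisic acid (0.0031, against -0.65), nitrogen (-0.34, against 0.80), phosphate (0.26, against -0.39) and shoot apex (-1.15, against 0.49). With the median taken off it changed sign for sulfur (0.28), iron (0.0927), copper and zinc (0.29), HD-ZIP and KNOX genes (0.24), guard cells (0.23) and root (0.0288). For glucosinolates it was -0.18 with at least 1 FPKM, against 0.13. Taking the median off also lowered counts of list members listed lower, to 10 for starvation genes, 4 for iron and flowering, and 3 for nitrogen and fatty acid breakdown. These counts fell to 1 for suberin, cellulose, glucosinolates, autophagy and hook genes, and to 0 for stomatal development. With a negative median this step could remove only genes listed lower, and all 1945 genes listed higher stayed. The median was taken over genes that include the called ones, more of them lower than higher, so it is not independent of the calls. What else contributes to it, and the cause of the changes against dark 35S:miR396a, was not tested. Depth limits the low genes: of 3022 calls with a deposited p-value above 0, 146 had under 30 fragments in the larger group.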

Other observations

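Of the 50 new transcripts of the authors' assembly among the listed genes, 8 were listed higher and 42 lower. The most abundant, BGI_novel_G000165, was at 23.8 FPKM in illuminated Col-0, against 181 in its dark control and 174 in the dark 35S:miR396a line. The files used here give these transcripts no position. Of the 22 listed organelle genes 18 were listed higher and 4 lower.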
